A study of Mus musculus with 7 samples.

Results

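Osteoclast differentiation and resorption genes were followed in RNA-sequencing of cortical bone from mice whose osteocytes were targeted for deletion of EphrinB2. The 10 genes were taken by symbol from the 27179 genes of the count files: Nfatc1, Oscar, Calcr, Dcstamp, Ocstamp, Atp6v0d2, Car2, Clcn7, Ctsk and Acp5. All 10 passed the filter on low counts and were among the 15074 genes tested, so no member was lost.

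Osteoclasts are multinucleated cells of the monocyte lineage that resorb bone. Their precursors receive macrophage colony-stimulating factor (Csf1) and RANKL (Tnfsf11, opposed by its decoy receptor osteoprotegerin, Tnfrsf11b), a signal that is reinforced by receptors paired with the adaptors Fcer1g and Tyrobp, and switch on the transcription factor Nfatc1. The cells then fuse, attach to bone, acidify the space beneath them with protons and chloride, and digest the exposed collagen with proteases. In cortical bone they work beside osteocytes, which are a main source of RANKL in the adult skeleton.

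Femora came from 12-week-old female mice on a C57BL/6 background, from which the ends had been removed and the marrow flushed. In the 3 mice labelled Dmp1Cre.EfnB2f/f, Cre recombinase driven by a promoter of Dmp1, which is active in osteocytes and late osteoblasts, was combined with floxed EfnB2. The 4 control mice were labelled Dmp1Cre, so both groups carried the Cre transgene. The study calls its controls cousin-bred, though by parent cross control 3 was not a cousin of every Dmp1Cre.EfnB2f/f mouse. Each library was 1 mouse. By parent cross, mice 1 and 2 of Dmp1Cre.EfnB2f/f belonged together, as did controls 1 and 2. Control 3 had the same parents as mouse 3 of Dmp1Cre.EfnB2f/f, the single cross that gave both genotypes, and control 4 came from a cross of its own. Osteoclasts do not descend from Dmp1-expressing cells, and whole bone holds many other cells, so levels here describe the bone and not the osteoclast alone: fewer osteoclasts and less RNA per osteoclast cannot be told apart.

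Totals ranged from 17245556 to 22075778 counts per library. Efnb2 (chromosome 8 of GRCm38, 8617235 to 8661242), the targeted gene, was at 17.9, 13.1 and 11.8 CPM (read counts scaled to library size, with TMM factors) in the 3 libraries that carry the Dmp1Cre.EfnB2f/f label, against 8.50, 7.93, 6.44 and 6.36 CPM in controls. The groups did not overlap, and the level went against the label, at 0.96 on the log2 scale (standard error 0.21, edgeR adjusted p = 0.51). In sorted osteocytes of other mice, the study found Efnb2 lost by PCR of the targeted region and kept in non-osteocytic cells. Counts over the whole gene do not separate the floxed part. The mice are therefore named by their labels throughout. Of all genes tested, 0.0% had an edgeR adjusted p under 0.05, and 9.67% had an unadjusted p under 0.05.

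No osteoclast gene passed the test for a difference between the genotypes. Of the 10 genes, 0 had an adjusted p under 0.05 and 0 had an unadjusted p under 0.05 with edgeR's quasi-likelihood test (Benjamini-Hochberg adjustment over all genes), and DESeq2 also called 0 by either measure, beside 0.478% and 12.5% of all genes. The limma pipeline described with Car2 called 1 of the 10, beside 15.1% of all genes. The groups overlapped for every member, beside 5.03% of all genes that did not overlap and were higher in Dmp1Cre.EfnB2f/f and 6.3% that were lower. Of the log2 fold changes, 4 were above 0 and 6 below, with a median of -0.18, beside 0.01 over all genes tested. Without control 1 the median of the members was 0.37. What stood out in the levels was the spread between control mice. Control 1 was the highest of the 7 libraries for 6 of the 10 genes and control 3 the lowest for 8, and 7 genes, Acp5, Ctsk, Atp6v0d2, Ocstamp, Dcstamp, Oscar and Calcr, differed by 3.79-fold to 10.7-fold between these 2 mice of the same genotype.

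**Figure D1:**
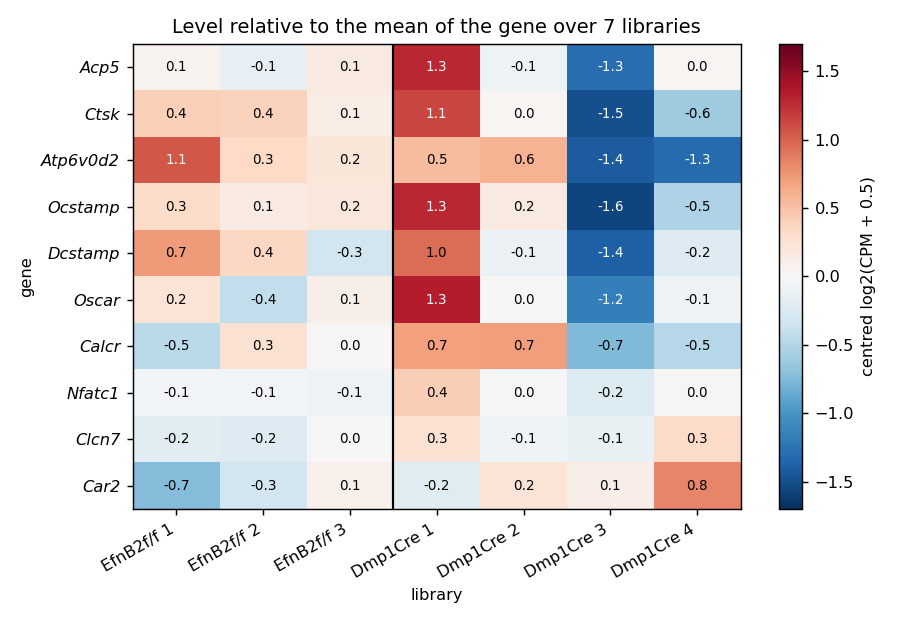
Level of each osteoclast gene (rows) in each library (columns; Dmp1Cre.EfnB2f/f left of the line, Dmp1Cre right of it), as log2(CPM + 0.5) minus the mean of that gene over the 7 libraries. The upper 7 genes are all lowest in control 3, and 5 of them are highest in control 1. Atp6v0d2 is highest in mouse 1 of Dmp1Cre.EfnB2f/f and Calcr in control 2. Nfatc1 and Clcn7 vary little, and Car2 is highest in control 4.

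Promoter sequence from the RefSeq table (GRCm38.p6, 250 bases before to 50 after a start) is shown for 3 of the members that moved together from mouse to mouse, Ctsk, Oscar and Acp5, chosen because theirs held matches to the motifs searched, and for Clcn7, whose level was steady. Promoters of 5 of the 10 members were searched, those of Ctsk, Calcr, Oscar, Acp5 and Clcn7. The remaining members, Nfatc1 among them, were not searched. Capitals mark, on either strand, the core letters bound by NFAT factors (TGGAAA, in 21.4% of all promoters of the table), by PU.1 (GAGGAA, 28.3%), the M-box form of the site of Mitf and its relatives (CATGTG, 14.2%) and the CACGTG form of that site (7.15%), which was added to the search after the sequences had been seen. The AP-1 site TGANTCA (7.81%) was also searched and was found in none of the promoters of the 5 members searched. No marked sites overlap. Ctsk is shown at chr3:95498960-95499259 on the plus strand, Oscar at chr7:3616108-3616407, minus strand, Acp5 at chr9:22130549-22130848, minus strand, and Clcn7 at chr17:25133141-25133440, plus strand.
Ctsk: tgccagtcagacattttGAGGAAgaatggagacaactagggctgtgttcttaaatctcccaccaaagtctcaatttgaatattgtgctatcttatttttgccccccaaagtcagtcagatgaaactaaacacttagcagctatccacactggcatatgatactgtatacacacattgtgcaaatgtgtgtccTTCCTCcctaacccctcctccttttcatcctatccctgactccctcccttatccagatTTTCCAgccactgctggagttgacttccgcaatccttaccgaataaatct
Oscar: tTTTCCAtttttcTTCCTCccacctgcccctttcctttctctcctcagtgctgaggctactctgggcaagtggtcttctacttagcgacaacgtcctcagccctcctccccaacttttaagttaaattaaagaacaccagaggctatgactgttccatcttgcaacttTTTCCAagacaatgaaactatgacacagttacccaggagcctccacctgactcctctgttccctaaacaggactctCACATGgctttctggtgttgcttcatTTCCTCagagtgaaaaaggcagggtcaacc
Acp5: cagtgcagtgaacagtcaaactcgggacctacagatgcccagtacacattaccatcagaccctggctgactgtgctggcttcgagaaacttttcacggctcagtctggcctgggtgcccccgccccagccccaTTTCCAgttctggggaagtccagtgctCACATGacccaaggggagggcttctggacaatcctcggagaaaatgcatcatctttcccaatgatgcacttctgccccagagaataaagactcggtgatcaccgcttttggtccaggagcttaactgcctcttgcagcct
Clcn7: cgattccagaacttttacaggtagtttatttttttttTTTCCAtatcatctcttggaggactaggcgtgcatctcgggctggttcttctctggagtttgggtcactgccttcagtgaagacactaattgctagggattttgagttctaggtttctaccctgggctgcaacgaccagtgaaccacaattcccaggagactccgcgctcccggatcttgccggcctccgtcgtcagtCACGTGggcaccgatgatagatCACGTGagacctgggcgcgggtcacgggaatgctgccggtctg
The Ctsk promoter held 1 NFAT match and 2 PU.1 matches. That of Oscar held 2 NFAT matches, 2 PU.1 matches and 1 M-box. The Acp5 promoter shown had 1 NFAT match and 1 M-box, and neither of the other Acp5 starts in the table had any. The Clcn7 promoter shown had 1 NFAT match and 2 copies of CACGTG close to the start, and that of the other Clcn7 start in the table had 1 M-box. Calcr, which like Ctsk, Oscar and Acp5 was lowest in control 3, had no match in either of its promoters. Such short matches are common in promoters of this length and describe letters only.

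Per length of gene, the members spanned about 3 orders of magnitude. Levels per length are given as RPKM, the CPM divided by the gene length in kilobases that the count files state. In the controls the median was 756 RPKM for Car2, 178 for Acp5, 121 for Ctsk, 20.8 for Clcn7, 12.8 for Nfatc1, 7.74 for Atp6v0d2, 1.72 for Dcstamp, 1.63 for Ocstamp, 1.57 for Oscar and 0.543 for Calcr. The secreted enzymes of the resorption pit thus stood far above the fusion proteins and receptors. The ranges of neighbouring genes overlapped for Acp5 (73.0 to 441 RPKM in the controls) and Ctsk (50.8 to 317), and for Dcstamp (0.588 to 4.00), Ocstamp (0.449 to 4.79) and Oscar (0.579 to 4.49). The range of Atp6v0d2 (3.02 to 12.7) overlapped with those of Nfatc1 (10.9 to 17.2) and Dcstamp, and that of Calcr (0.212 to 0.813) with that of Oscar. Car2 (579 to 1190) lay above Acp5 in every control, and Clcn7 (17.7 to 24.1) lay below Ctsk and above Nfatc1 without overlap.

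**Figure D2:**
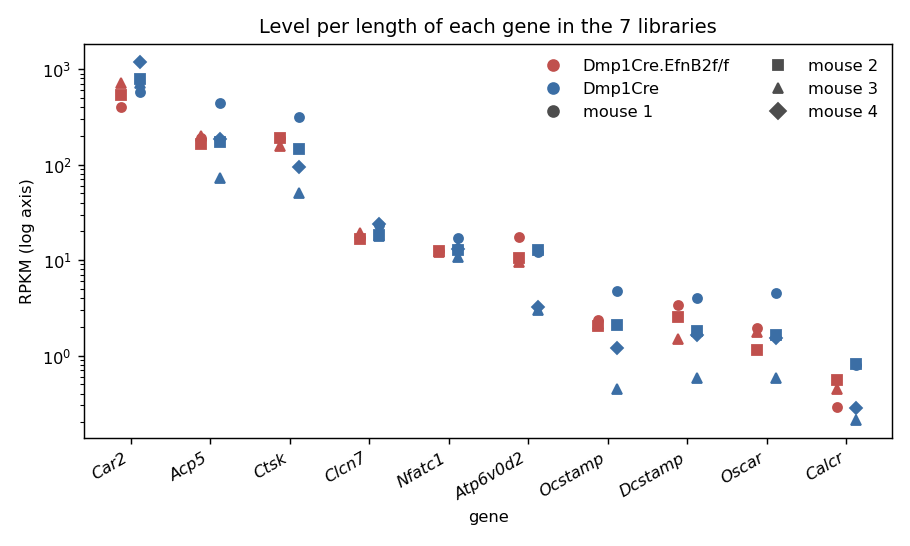
Level per length (RPKM, log axis) of each osteoclast gene in the 7 libraries, with marker shape giving the number of the mouse and colour the genotype. Control medians run from 756 RPKM for Car2 down to 0.543 for Calcr, and control 3 sits at the bottom of each of Acp5, Ctsk, Atp6v0d2, Ocstamp, Dcstamp, Oscar and Calcr.

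Nfatc1 (chromosome 18 of GRCm38, 80606205 to 80713071), the transcription factor that RANKL induces and that drives most of the osteoclast programme, was at 91.9, 92.0 and 89.9 CPM in Dmp1Cre.EfnB2f/f. In the controls it was at 128, 94.0, 80.9 and 96.6 CPM. The Dmp1Cre.EfnB2f/f values lay within the control range and within 1.02-fold of each other. The log2 fold change was -0.13 (standard error 0.18, 95% interval -0.54 to 0.28, edgeR adjusted p = 0.751). Nfatc1 is also used by endothelial cells and lymphocytes. Its control spread was modest, at the 33.9th percentile of the 14425 genes tested with a mean of at least 1 CPM over all libraries.

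Oscar (chromosome 7, 3609813 to 3616157), a collagen-binding receptor that pairs with the adaptor Fcer1g, was at 3.56, 2.09 and 3.22 CPM in Dmp1Cre.EfnB2f/f, against 8.18, 2.97, 1.05 and 2.77 CPM in controls. Every Dmp1Cre.EfnB2f/f value fell between the lowest and highest control. The fitted log2 fold change was -0.35 (standard error 0.58, 95% interval -1.68 to 0.98, edgeR adjusted p = 0.792). Calcr (chromosome 6, 3685678 to 3764713), the calcitonin receptor by which that hormone restrains resorption, was the least abundant member, at 1.11, 2.14 and 1.74 CPM against 3.11, 3.14, 0.820 and 1.09 CPM. Controls 1 and 2 were above and controls 3 and 4 below every Dmp1Cre.EfnB2f/f value (log2 fold change -0.29, standard error 0.52, 95% interval -1.47 to 0.88, edgeR adjusted p = 0.800). Calcr had 14 to 60 counts per library, for which counting error alone gives an SD of 0.285 on the log2 scale, against the 0.772 observed among controls. Calcr overlaps Mir653, Mir489 and Gm33576 in position, and whether reads of these entered its count was not tested.

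Dcstamp (chromosome 15, 39745930 to 39760938), a membrane protein required for precursors to fuse, was at 6.73, 5.10 and 3.01 CPM in Dmp1Cre.EfnB2f/f, against 7.98, 3.60, 1.17 and 3.26 CPM in controls. Ocstamp (chromosome 2, 165395450 to 165400394), its relative in fusion, was at 4.56, 4.01 and 4.17 CPM against 9.38, 4.05, 0.879 and 2.34 CPM. For both genes control 1 was highest, control 3 was lowest, and all Dmp1Cre.EfnB2f/f values lay between them. The log2 fold change was 0.30 for Dcstamp (standard error 0.55, 95% interval -0.95 to 1.55, edgeR adjusted p = 0.808). For Ocstamp it was 0.02 (standard error 0.63, 95% interval -1.40 to 1.45, edgeR adjusted p = 0.989), although its SD was 0.286 CPM in one group and 3.71 CPM in the other.

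Atp6v0d2 (chromosome 4, 19876838 to 19922566), the osteoclast form of a subunit of the V-ATPase proton pump, which is also needed for fusion, had the largest fold change of the members. It was at 43.9, 26.5 and 24.2 CPM in Dmp1Cre.EfnB2f/f, against 30.7, 31.7, 7.56 and 8.10 CPM in controls. Mouse 1 of Dmp1Cre.EfnB2f/f was the highest library, but controls 1 and 2 were above mice 2 and 3. The log2 fold change was 0.69 (standard error 0.54, 95% interval -0.53 to 1.91, edgeR adjusted p = 0.591).

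Car2 (chromosome 3, 14886269 to 14900770), the carbonic anhydrase that supplies protons, was at 721, 951 and 1273 CPM in Dmp1Cre.EfnB2f/f, against 1036, 1411, 1297 and 2137 CPM in controls. Mice 1 and 2 of Dmp1Cre.EfnB2f/f were below every control and mouse 3 was above control 1. The log2 fold change was -0.58 (standard error 0.32, 95% interval -1.31 to 0.15, edgeR adjusted p = 0.52), the lowest p of the 10 members at 0.104 before adjustment with edgeR. With the limma pipeline of the study's type, run here without a day term, Car2 alone of the members passed the threshold, at a log2 fold change of -0.70 and an adjusted p of 0.0216, where 15.1% of all genes passed. Car2 and Ctsk had an unadjusted p under 0.05 in that pipeline, beside 33.0% of all genes. Without its quality weights the pipeline called 0 genes, and the log2 fold change of Car2 was -0.42 (limma adjusted p = 0.52). Red cells and their precursors are rich in carbonic anhydrase, and the summed level of 10 erythroid markers was 3667 to 5532 CPM in Dmp1Cre.EfnB2f/f, against 6351 to 12421 CPM in controls. Slc4a1 and Alas2 made up 59.2% to 81.4% of this sum. The other 8 markers summed to 1497 to 1982 CPM, against 1457 to 2649 CPM in controls, and the groups overlapped in that sum. Of the 10 markers, 9 had a log2 fold change below 0 and 1 above, with a median of -0.45. The 1 above was Car1, the carbonic anhydrase of this list, at 0.18. The part of erythroid cells in the Car2 difference was not tested.

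Clcn7 (chromosome 17, 25133378 to 25162103), the chloride-proton exchanger of lysosomes and of the ruffled border, was at 69.0, 67.3 and 78.7 CPM in Dmp1Cre.EfnB2f/f, against 94.2, 74.5, 71.9 and 97.9 CPM in controls. Mouse 3 overlapped with controls 2 and 3. The log2 fold change was -0.24 (standard error 0.17, 95% interval -0.63 to 0.15, edgeR adjusted p = 0.569). As a lysosomal protein it is made by many cells, and its level varied by only 1.36-fold among the controls.

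Of the enzymes of the resorption pit, Ctsk (chromosome 3, 95499210 to 95509387), the cathepsin that cleaves collagen, was at 281, 279 and 233 CPM in Dmp1Cre.EfnB2f/f, against 469, 219, 75.2 and 139.5 CPM in controls. Acp5 (chromosome 9, 22126727 to 22135746), the tartrate-resistant acid phosphatase by which osteoclasts are stained, was at 305, 265 and 324 CPM against 712, 276, 118 and 299 CPM. The Dmp1Cre.EfnB2f/f values of both genes clustered within 1.22-fold of each other, while the controls spanned 6.24-fold for Ctsk and 6.04-fold for Acp5. Neither differed beyond this spread, with log2 fold changes of 0.23 for Ctsk (standard error 0.52, 95% interval -0.95 to 1.41, edgeR adjusted p = 0.847) and -0.24 for Acp5 (standard error 0.50, 95% interval -1.38 to 0.90, edgeR adjusted p = 0.833). Control 1 decided these signs in part: without it the log2 fold change of Acp5 was 0.37 and that of Oscar 0.38. That of Ctsk was then 0.87, the 1 member with an unadjusted p under 0.05 in that fit (edgeR adjusted p = 0.443), beside 11.3% of all genes.

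**Figure D3:**
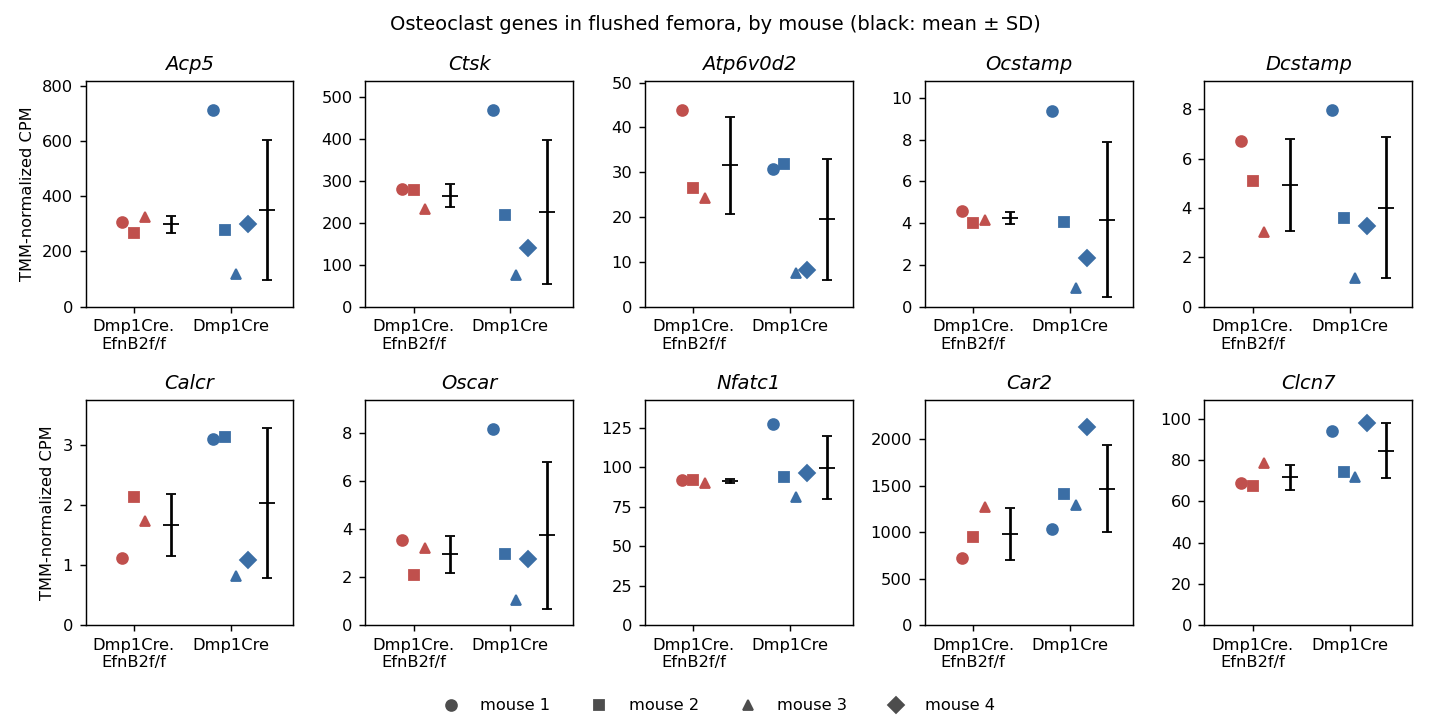
Level of each osteoclast gene (TMM-normalized CPM, linear axis from 0) in each mouse of the 2 genotypes, with marker shape giving the number of the mouse and the black bar the mean ± SD of the group (n = 3 and n = 4). Groups overlap in every panel, and for Acp5, Ctsk, Ocstamp, Dcstamp and Oscar control 1 lies above and control 3 below all 3 Dmp1Cre.EfnB2f/f mice.

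**Figure D4:**
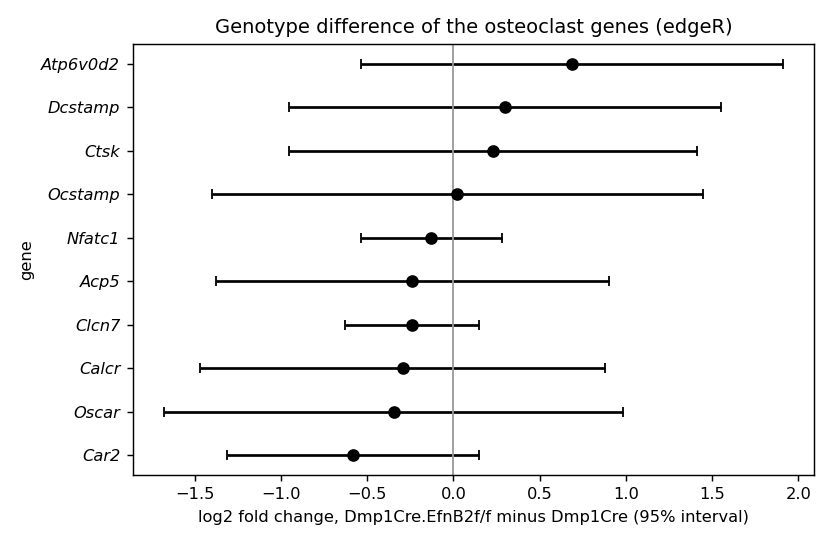
Log2 fold change of each osteoclast gene, Dmp1Cre.EfnB2f/f minus Dmp1Cre, with its 95% interval from the edgeR fit. Every interval spans 0, and the intervals of Nfatc1 (-0.54 to 0.28) and Clcn7 (-0.63 to 0.15) are the narrowest.

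The intervals set what this design could see. For Nfatc1 and Clcn7 they reached no further than 0.63 on the log2 scale in either direction, whereas for the genes largely restricted to osteoclasts they reached beyond 1 in at least one direction, so that a log2 change of 1 in at least one direction lay within the interval of each of Atp6v0d2, Ctsk, Acp5, Dcstamp, Ocstamp, Oscar and Calcr, and of Car2. In SD of log2 level, the controls exceeded Dmp1Cre.EfnB2f/f for all 10 members. The share of all genes with this order was not counted, so it cannot be read as particular to the members. Among the 14425 genes just described, the control SD of Ocstamp was at the 99.4th percentile, those of Atp6v0d2 and Ctsk at the 99.0th, Acp5 at the 98.7th, Oscar at the 98.4th, Dcstamp at the 97.8th and Calcr at the 93.1st. Car2 was at the 64.8th and Clcn7 at the 25.3rd. The groups differed in the number of mice and in their parent crosses, and the difference in spread was not tested.

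Between the extremes, control 1 exceeded control 3 by 6.04-fold for Acp5, 6.24-fold for Ctsk, 10.7-fold for Ocstamp, 6.81-fold for Dcstamp, 7.76-fold for Oscar, 4.06-fold for Atp6v0d2 and 3.79-fold for Calcr. Nfatc1 was 1.58-fold and Clcn7 1.31-fold higher, and Car2 was at 0.799 of the control 3 level. By this measure 7 of the 10 members were at least 2-fold higher, as were 8.26% of all genes tested. These mice were picked as the extremes of the same members, so the count follows in part from that choice. The share of all genes is no fair measure for it. In the shared parent cross, mouse 3 of Dmp1Cre.EfnB2f/f was above control 3 by 2.74-fold for Acp5, 3.10-fold for Ctsk, 3.20-fold for Atp6v0d2, 4.74-fold for Ocstamp, 2.57-fold for Dcstamp, 3.05-fold for Oscar and 2.12-fold for Calcr, and 4.03% of all genes were at least 2-fold higher. Nfatc1, Clcn7 and Car2 were within 1.11-fold. In the edgeR fit with the parent cross as a block, which rests on these 2 mice for the genotype, 3 of the 10 members had an unadjusted p under 0.05, beside 2.03% of all genes, at log2 fold changes of 1.63 for Ctsk, 1.68 for Atp6v0d2 and 2.24 for Ocstamp, and 0 had an adjusted p under 0.05. The folds are comparisons of 1 mouse with 1 mouse, with no replicate and no test, and control 3 is the low mouse in both.

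Markers of bone-forming cells moved between the same mice. Of 12 osteoblast and osteocyte markers, 9 were highest in control 1 and 7 were lowest in control 3. At least 2-fold higher in control 1 than in control 3 were 11 of the 12, beside 8.26% of all genes. The collagen genes Col1a1 and Col1a2 made up 90.6% to 96.5% of the summed level of the list, which was 71641, 14354, 14623 and 35351 CPM in controls 1 to 4. The other 10 markers summed to 1417, 1225 and 1265 CPM in Dmp1Cre.EfnB2f/f, against 2529, 1097, 670.0 and 1246 CPM in controls. Without the collagen genes, a sum taken after the data were seen, control 1 was thus the highest and control 3 the lowest library, as for most of the osteoclast genes, and 8 of the 10 were higher in control 2 than in control 3. Monocyte and macrophage markers (12 genes) summed to 4181 CPM in control 1 and 3425 CPM in control 3. No marker of any list was at 0. The part of these differences in the spread of the osteoclast genes was not tested.

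Between the genotypes, 3 of 8 marker sums did not overlap, all lower in Dmp1Cre.EfnB2f/f. Of single genes tested, 6.3% were lower without overlap, and no such share was counted for sums of genes. The monocyte and macrophage sum was 2553 to 3180 CPM in Dmp1Cre.EfnB2f/f, against 3425 to 4705 CPM in controls, the granulocyte sum (10 genes) was 12344 to 15461 and 17701 to 20929 CPM, and the erythroid sum is given above with Car2. Without the 2 most abundant markers of each list, the granulocyte sum still did not overlap (6645 to 8436 CPM, against 9451 to 13339 CPM in controls), whereas the monocyte and macrophage sum did (994 to 1047 CPM, against 1038 to 1460 CPM in controls), as did the erythroid sum. Skeletal muscle markers (10 genes) summed to 27860 to 41999 CPM in Dmp1Cre.EfnB2f/f and to 12900 to 29283 CPM in the controls, of which control 3 was the highest. Megakaryocyte markers (8 genes) summed to 2229 to 2401 and 1757 to 3894 CPM, B-lineage markers (8 genes) to 344 to 389 and 251 to 391 CPM, and endothelial markers (8 genes) to 527 to 636 and 416 to 559 CPM. With edgeR no single marker of any list had an adjusted p under 0.05. The study, which blocked on the day of collection, listed Klf1 and Tspo2 of the erythroid list as lower in Dmp1Cre.EfnB2f/f. The part of marrow cells and muscle in the member levels was not tested.

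**Figure D5:**
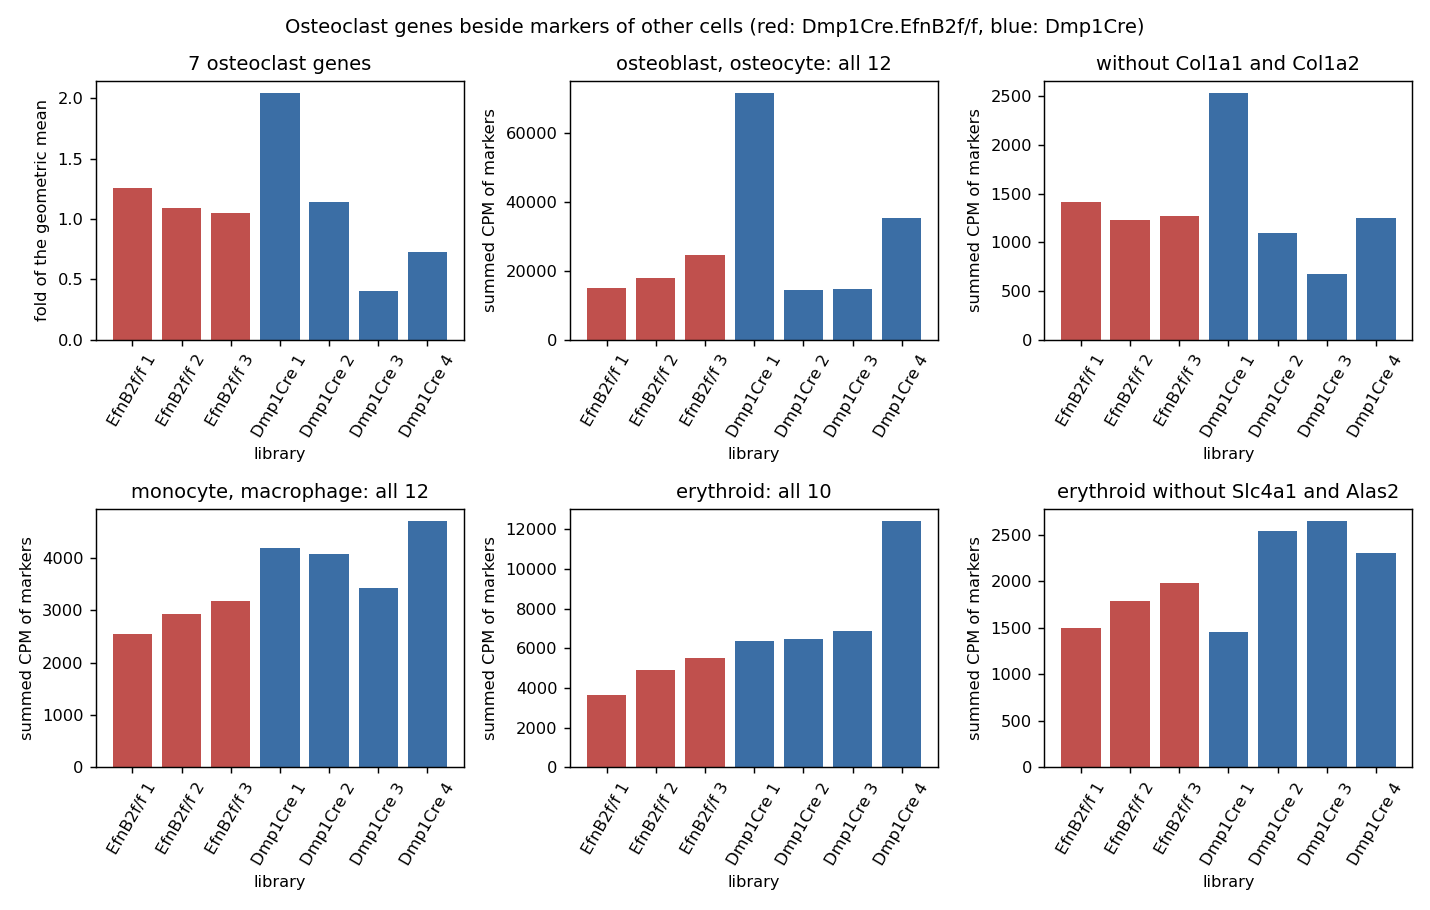
Mean profile of the 7 genes largely restricted to osteoclasts, as the fold of their geometric mean over the 7 libraries, beside summed CPM of markers of osteoblasts and osteocytes, of monocytes and macrophages, and of erythroid cells, with the 2 most abundant markers left out where the panel says so. Bars are single mice (red Dmp1Cre.EfnB2f/f, blue Dmp1Cre). Control 3 is lowest and control 1 highest both in the osteoclast profile and in the osteoblast and osteocyte sum without Col1a1 and Col1a2 (670.0 and 2529 CPM).

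Other genes of the osteoclast pathway were read from 5 lists with 60 genes, of which 59 were tested and Fosl1 was too low. With edgeR 0 had an adjusted p under 0.05, and 2 had an unadjusted p under 0.05, both lower in Dmp1Cre.EfnB2f/f, beside 9.67% of all genes. Fold changes were above 0 for 20 and below 0 for 39, with a median of -0.17. Over all genes tested, 7737 were above 0 and 7337 below, with a median of 0.01. Groups did not overlap for 1 gene that was higher (Atp6v1c1, a V-ATPase subunit) and for 3 that were lower (Fcer1g, Cd44 and Plekhm1), beside 5.03% and 6.3% of all genes. DESeq2 called 0 of these genes. The limma pipeline called 4 of the 59, with Jun, Mmp14 and Ctsl higher and Tfec lower, where it called 15.1% of all genes.

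Among 16 receptors and adaptors, 5 fold changes were above 0 and 11 below. Fcer1g, the adaptor that Oscar signals through, was at 85.3, 89.0 and 88.8 CPM in Dmp1Cre.EfnB2f/f, against 119.8, 109.4, 95.3 and 123 CPM in controls. Its groups did not overlap, but the log2 fold change of -0.35 (standard error 0.15) had an edgeR adjusted p of 0.51. Fcer1g is carried by most myeloid cells. Granulocyte markers summed to 12344 to 15461 CPM in Dmp1Cre.EfnB2f/f, against 17701 to 20929 CPM in controls, and their part in the Fcer1g difference was not tested. Tnfrsf11a, the receptor RANK, had a log2 fold change of 0.18 and ran from 7.91 CPM in control 3 to 16.9 CPM in control 1. Chosen after their values were seen, 4 of the 16 were at least 2-fold higher in control 1 than in control 3: Siglec15 (3.42-fold) and Trem2 (2.72-fold), both myeloid receptors that act in osteoclast formation, Tnfrsf11a (2.14-fold) and the Csf1 receptor Csf1r (2.13-fold). The other 12 did not reach 2-fold, which 8.26% of all genes tested did between these mice.

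Of the 15 transcription factors tested, 5 had fold changes above 0 and 10 below. Spi1, which encodes PU.1, the myeloid factor that opens the lineage, was at 67.9, 78.6 and 83.4 CPM in Dmp1Cre.EfnB2f/f, against 146, 90.4, 80.8 and 151.5 CPM in controls. Only mouse 3 overlapped, with control 3, and the log2 fold change of -0.61 (standard error 0.25) had an edgeR adjusted p of 0.51. Of the 15 factors, 1 was at least 2-fold higher in control 1 than in control 3 (Jdp2, 2.01-fold), beside 8.26% of all genes. Of 6 repressors of the programme, the lowest p-values were those of Irf8 (log2 fold change -0.48, adjusted p = 0.517), Bcl6 (-0.21, adjusted p = 0.573) and Id2 (0.24, adjusted p = 0.594) in the edgeR fit.

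The 18 further genes of the resorption machinery had 5 fold changes above 0 and 13 below. The lowest p-values belonged to Ctsl, a cathepsin of lysosomes (log2 fold change 0.41, edgeR adjusted p = 0.516), Plekhm1, an adaptor of lysosome transport (-0.38, edgeR adjusted p = 0.517), and Atp6v0d1, the widely made form of the subunit that Atp6v0d2 replaces (-0.49, edgeR adjusted p = 0.517). Mmp9 (2.54-fold), Mmp14 (3.15-fold), Slc4a2 (2.07-fold), Slc9b2 (5.77-fold) and Ckb (5.39-fold) were at least 2-fold higher in control 1 than in control 3. That difference was reached by 8.26% of all genes. Tcirg1, the osteoclast-enriched large subunit of the proton pump, was at 151 to 153 CPM in Dmp1Cre.EfnB2f/f, against 143.9 to 194 CPM in controls, a much narrower range than Atp6v0d2. Of the 4 signals, Tnfsf11 (RANKL) was at 11.1, 7.13 and 3.59 CPM against 5.65, 4.22, 4.04 and 1.74 CPM, with mouse 3 of Dmp1Cre.EfnB2f/f below 3 of the controls (log2 fold change 0.89, standard error 0.45, edgeR adjusted p = 0.517). The ligands of Csf1r followed, Il34 at a log2 fold change of -0.20 (edgeR adjusted p = 0.66) and Csf1 at 0.18 (edgeR adjusted p = 0.722). Among 23 relatives of the members, 14 were above 0 and 9 below, and Car14, a membrane carbonic anhydrase, had the lowest p. It was at 14.2, 13.8 and 10.2 CPM against 6.94, 6.11, 7.85 and 4.30 CPM, with no overlap (log2 fold change 1.01, standard error 0.24, edgeR adjusted p = 0.51).

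Ratios of 2 genes within a library do not depend on the scaling between libraries. Of 6 ratios of RPKM, 0 passed the two-sided exact permutation test over all 35 ways to divide the samples at an adjusted p under 0.05, and 0 did before adjustment. The smallest p that 3 against 4 mice allow is 0.0286, so 1 ratio alone could not pass after adjustment over the 6. The 0 after adjustment therefore says little. Acp5 to Ctsk was 0.993, 0.871 and 1.27 in Dmp1Cre.EfnB2f/f, against 1.39, 1.16, 1.44 and 1.96 in controls, so that only mouse 3 exceeded a control, with a mean log2 difference of -0.50 (exact p = 0.0857, adjusted over the 6 ratios p = 0.429). Both genes varied more than 6-fold among the controls, but their ratio varied by 2.25-fold over all libraries. Atp6v0d2 to Atp6v0d1 was 0.383, 0.201 and 0.171 against 0.151, 0.235, 0.0572 and 0.0315, a log2 difference of 1.40 (exact p = 0.229, adjusted p = 0.429), and this ratio had the widest span, 12.2-fold. Ocstamp to Dcstamp spanned 2.05-fold (log2 difference -0.02, exact p = 0.943, adjusted p = 0.943). Clcn7 to Ostm1, its partner subunit, spanned 2.65-fold (log2 difference -0.55, exact p = 0.286, adjusted p = 0.429). Nfatc1 to Nfatc2 spanned 1.93-fold (log2 difference 0.10, exact p = 0.743, adjusted p = 0.891) and Calcr to Ctsk 3.63-fold (log2 difference -0.64, exact p = 0.229, adjusted p = 0.429).

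The 10 genes most like the mean profile of Acp5, Ctsk, Atp6v0d2, Ocstamp, Dcstamp, Oscar and Calcr were sought among the 6380 other genes whose SD over the 7 libraries was at least 0.36 on the log2 scale. Likeness was the mean absolute gap in centred log2 CPM over the 7 libraries. Slc9b2, a sodium-proton antiporter of the resorption list, came first with a gap of 0.101, at 16.6, 14.6 and 15.0 CPM in Dmp1Cre.EfnB2f/f, against 32.5, 15.6, 5.62 and 8.05 CPM in controls. It was followed by Fam198b (0.169), Kcnk2 (0.18), Cd109 (0.187), Anpep (0.194), Eln (0.196), Fat1 (0.197), Cldn10 (0.202), Tbx2 (0.203) and Slc37a2 (0.208). All 10 were highest in control 1, and control 3 was lowest for all of them but Cldn10, which was at 2.11 CPM in control 3 and 2.07 CPM in control 4. The libraries share their depth and composition across these genes, so the likeness is a description of 7 mice.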

How the data were processed

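RNA from flushed femora of 3 Dmp1Cre.EfnB2f/f and 4 Dmp1Cre mice was sequenced on an Illumina HiSeq as paired ends after TruSeq library preparation. The authors mapped reads to mm10 with Rsubread and deposited raw counts per Entrez gene from featureCounts, with the gene length of its annotation and without normalization or gene filter. The submitters' processing notes also name bcl2fastq 2.17.1.14; other versions and the strand setting are not given in the sources used here. Samples were grouped by their titles and genotype labels. The table of the whole series was not used.

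Of 27179 genes, 25275 matched RefSeq (GRCm38.p6, the build of mm10), the source of positions. A level of 0.65 CPM or more in 3 or more libraries was required (16302 genes), and 1228 genes were dropped for the classes the study removed, by symbol and gene type. The remaining 15074 were tested with edgeR 4.0.16 in R 4.3.3 (TMM, robust quasi-likelihood, Benjamini-Hochberg, threshold 0.05), after the fit had been tested on simulated data. The standard error is the size of the log2 fold change over the square root of F. DESeq2 1.42.0 and a limma 3.58.1 pipeline (prior count 2, quantile normalization, quality weights) were alternatives. The study blocked on the day of collection; the labels give no day per library, so a day effect was not tested. Labels do not say more of the replicates than that they are separate mice, and every pair of libraries within a genotype differed by more than sampling noise (chi-square per degree of freedom 33.4 to 218). Totals of 17245556 to 22075778 counts limit precision for the lowest members, and intervals for counting error cover that error only.

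Named genes are the 10 members, Efnb2, pathway genes and relatives with an unadjusted p under 0.05 or else the 3 of lowest p per list, partners in ratios, and the 10 most alike profiles; others are named for a pattern seen. The members and lists were chosen with earlier results of these data known.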

Additional observations from a re-analysis of the deposited data

How the results depend on the processing

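The count of 0 members past the threshold was the same under every alternative but the limma pipeline with quality weights, which called 1 (Car2, log2 fold change -0.70, adjusted p = 0.0216). Over all genes, that pipeline called 2269, or 15.1% (1145 higher, 1124 lower), DESeq2 72, the replicate block 1, and edgeR with 1 library left out 0 to 2, against 0; of the pathway genes the limma pipeline called 4. The parent cross block rests on 1 mouse of each genotype and gave a median of 1.41 over the members, and leaving out 1 library gave medians of -0.31 to 0.37. Replicate numbers did not pair the mice (correlations of same-numbered deviations -0.146, 0.0697 and -0.437). No mouse of Dmp1Cre.EfnB2f/f correlated best with the control of its own number.

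Signs turned for members whose change was within error. Acp5 was at 0.34 with the limma pipeline, 0.20 without weights, 0.0479 with the replicate block and 1.46 with the parent cross block, and Nfatc1 at 0.0482 and 0.15 in the first and last of these. The cross block also turned Calcr (1.08), Oscar (1.60) and Clcn7 (0.13). With 1 library left out, the log2 fold change ranged from -0.53 to 0.37 for Acp5, -0.65 to 0.38 for Oscar, -0.22 to 0.0126 for Nfatc1, -0.31 to 0.81 for Ocstamp, -0.0581 to 0.87 for Ctsk and -0.00128 to 0.88 for Dcstamp. The ratio Ocstamp to Dcstamp ranged from -0.33 to 0.18 and Nfatc1 to Nfatc2 from -0.10 to 0.38. The cause was not tested. Of the member fold changes recomputed, 152 kept their direction and side of the threshold, 17 turned sign and 1 newly passed. Among the ratios, 43 kept their direction and 5 turned sign. With 1 library left out the exact test cannot give a p under 0.05, so there the ratios could not pass.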
